A study of Oryza sativa with 12 samples.

Results

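The 10 loci described here are germin-like protein genes that lie close together in locus number on rice chromosome 8, from LOC_Os08g08920 to LOC_Os08g09080, among 35851 genes with deposited values. They were taken by locus identifier, and the cluster was picked because LOC_Os08g08960 had the highest FPKM of all genes in the abscission zone of the cultivar DZ129. FPKM are fragments per length of gene and per library total, so levels can be compared between genes. RNA came from 2 pieces of the pedicel, the abscission zone (AZ) and the rest of the pedicel, called the nonabscission zone (NAZ). The labels give day 10 after flowering, while the methods of the study count from heading. W517 shatters its grain easily and DZ129 has lost shattering. Both are given as wild type, and the groups DZ129AZ, DZ129NAZ, W517AZ and W517NAZ had 3 libraries each. Each cultivar is represented by its own plants only, so cultivar and any other difference between these plants cannot be told apart. No source used here says whether a replicate was a plant or a pool, and p-values measure only the spread between these libraries.

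Germin-like proteins are secreted glycoproteins of the cupin family. Their name comes from the germins of cereal seedlings, with which they share a β-barrel fold. They are held in the extracellular matrix and bind manganese. Several have superoxide dismutase activity, and some germins have oxalate oxidase activity, both of which produce hydrogen peroxide. In rice the tandem copies on chromosome 8 are known for their contribution to resistance against fungal disease. Which activity each of the 10 copies has is not stated in the sources used here.

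Reads per gene could be recovered from the FPKM, and 17119083 to 20892377 reads per library lay on genes. On a member of about average length such as LOC_Os08g09000 (973 bp), 1 read was worth 0.0492 to 0.0600 FPKM, depending on the library. Replicates correlated with r of 0.989 to 0.991 across genes. Grain storage genes were measured as a sign of other tissue. The summed FPKM of 15 prolamin and glutelin genes ran from 447 to 491 in W517AZ and from 42.1 to 47.5 in W517NAZ. It ran from 1.93 to 3.81 in DZ129AZ and from 1.12 to 1.62 in DZ129NAZ. Each of the 15 had a read in every W517AZ library, and 3 to 9 of them had none in a DZ129 library. The study had chosen these genes as differing in W517AZ. Their part in the results below was not tested. The known genes of the abscission layer were not paired with loci in the sources used here, so the labelled tissue was not checked against them.

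LOC_Os08g08960 exceeded all other members in every library. Its FPKM in DZ129AZ was 18183, 16902 and 17346, a mean of 17477 ± 650.1 (SD, n = 3). In W517AZ it was 8216, 7728 and 7455, a mean of 7800 ± 386 (SD, n = 3). The 3 DZ129AZ libraries therefore lay above all W517AZ libraries, with mean FPKM 2.24 times as high. In the NAZ the gene fell to 450.5, 416 and 508 FPKM in DZ129 and to 524, 459 and 465 FPKM in W517, and the libraries of the 2 cultivars overlapped there.

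In DZ129AZ this gene took 1.84%, 1.71% and 1.75% of all reads on genes, from 317510 to 363441 reads. It ranked first in all 3 libraries, which is the value it was picked for. The next gene there was LOC_Os05g02070, with 8642 and 8717 FPKM in replicates 1 and 2, and in replicate 3 it was LOC_Os01g10400 with 8703 FPKM. LOC_Os08g08960 was thus 1.94 to 2.10 times as high as the next gene. In W517AZ it ranked 5, 5 and 6 among all genes and took 0.754% to 0.831% of the reads. In the NAZ it ranked 73 to 103 in DZ129 and 89 to 104 in W517, with 0.0420% to 0.0530% of the reads.

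**Figure D1:**
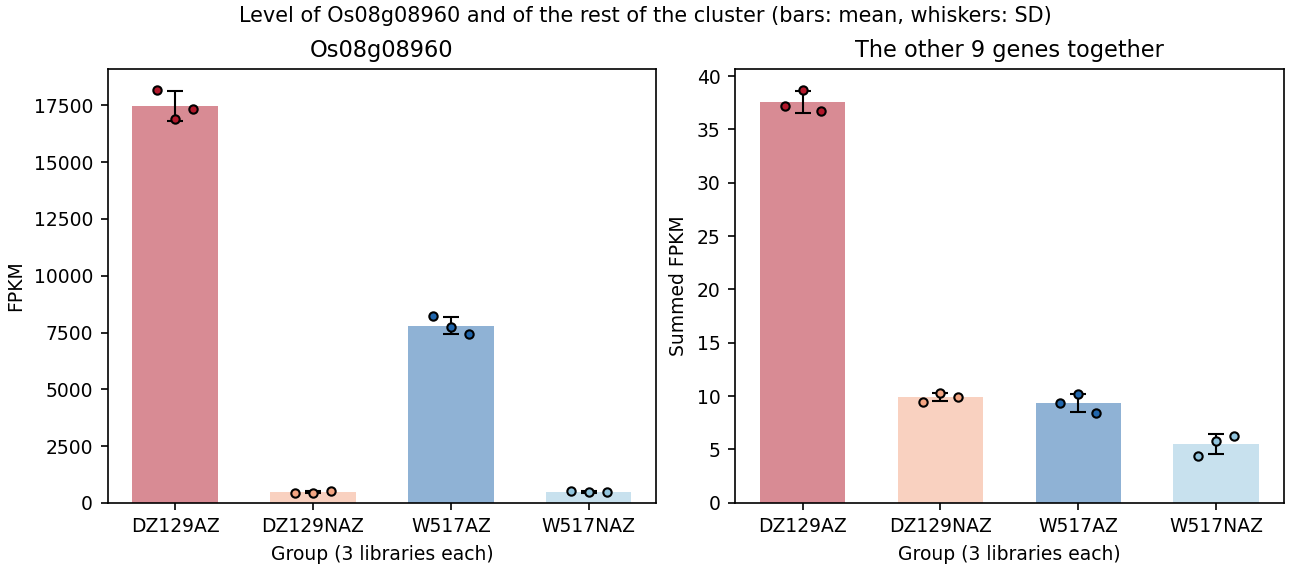
FPKM of LOC_Os08g08960 (left) and summed FPKM of the other 9 members (right) in the 4 groups, on linear axes of different range. Points are libraries, bars are means and whiskers are the SD of 3 libraries. LOC_Os08g08960 reached 16902 to 18183 FPKM in DZ129AZ and 7455 to 8216 in W517AZ, while the other 9 together stayed between 4.43 and 38.7 in all libraries.

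The other 9 members were minor in comparison. In DZ129 their summed FPKM was 36.7 to 38.7 in the AZ and 9.48 to 10.3 in the NAZ. In W517 it was 8.45 to 10.2 in the AZ and 4.43 to 6.24 in the NAZ. LOC_Os08g08960 held 99.8% of the FPKM of the cluster in each DZ129AZ library and 99.9% in each W517AZ library. In the NAZ its share was 97.6% to 98.1% in DZ129 and 98.7% to 99.2% in W517. Copies of a tandem cluster can share stretches of sequence, and how reads that match several copies were treated is not given in the sources used here. The levels of the minor copies are uncertain to that extent.

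Below LOC_Os08g08960 the order of the copies depended on the group. In DZ129AZ, LOC_Os08g09010 was second with 12.5 ± 1.06 FPKM and LOC_Os08g08980 in place 3 with 9.87 ± 0.389 (SD, n = 3). LOC_Os08g09060, LOC_Os08g08990, LOC_Os08g08970 and LOC_Os08g09000 followed with mean FPKM of 5.32, 3.42, 2.60 and 2.43, and only the last 2 of these overlapped. LOC_Os08g09020, LOC_Os08g09080 and LOC_Os08g08920 were lowest there, with mean FPKM of 0.900, 0.454 and 0.0766. In W517AZ, LOC_Os08g08980 was second with 4.50 ± 0.811 FPKM, above LOC_Os08g09010 with 2.39 ± 0.255 (SD, n = 3), and their libraries did not overlap.

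In DZ129NAZ the second place was again held by LOC_Os08g09010 with 5.33 ± 0.145 FPKM (SD, n = 3), apart from the next. LOC_Os08g08990 and LOC_Os08g09060 overlapped there, as did each neighbour in the order from LOC_Os08g08980 at 0.423 FPKM down to LOC_Os08g09000 at 0.204. In W517NAZ every neighbour overlapped from LOC_Os08g09010 at 1.49 FPKM down to LOC_Os08g08980 at 0.384.

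**Figure D2:**
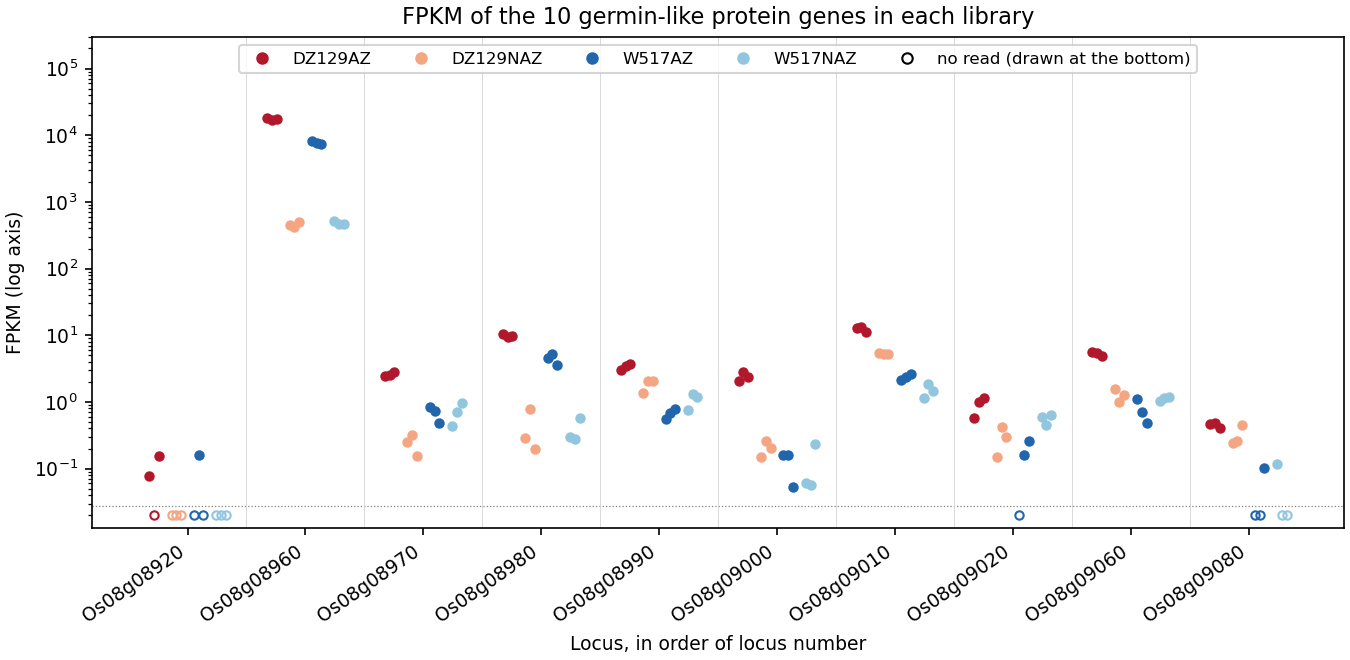
FPKM of the 10 members in each of the 12 libraries on a log axis, by locus, with 1 point per library coloured by group. Open circles at the bottom are libraries without a read. DZ129AZ is dark red and W517AZ is dark blue. LOC_Os08g08960, which was picked for its level in DZ129AZ, lies above all other loci in every library. The share of all genes whose libraries lie apart between groups was not computed.

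Differential expression was tested with limma on log2(FPKM + 0.1) in 1 model of all 12 libraries. A gene was called at an adjusted p below 0.05 (Benjamini-Hochberg over all 23951 genes tested) with a fold change above 2. The test took in genes that reached 0.5 FPKM in 3 or more libraries. Of the 10 members 8 passed this filter, and LOC_Os08g08920 and LOC_Os08g09080 did not. LOC_Os08g09000 reached 0.5 FPKM in DZ129AZ alone, and LOC_Os08g09020 in DZ129AZ and in 2 W517NAZ libraries. Neither would have passed without DZ129AZ, where they had to be high. For these 2 and for LOC_Os08g08960 no test is given where DZ129AZ enters, and counts over the tested members describe the cluster and support nothing further. Fold changes on this scale understate those of genes with low FPKM, and in whole tissue pieces fewer cells of a type and less RNA per cell cannot be told apart.

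The comparison of the abscission zones asks how the easily shattering cultivar differs from the other. In W517AZ vs. DZ129AZ, limma called all 5 members other than LOC_Os08g08960 that passed the filter without DZ129AZ, each lower in W517AZ. Of all genes tested 27.1% were called, 10.6% higher and 16.4% lower. With LOC_Os08g09000 and LOC_Os08g09020 taken in as a description, 7 of the other 9 members passed the same limits. The median log2 fold change of the 5 was −2.20, and that of all genes tested was −0.07. LOC_Os08g08960 itself had a log2 fold change of −1.16, with a standard error (SE) of 0.07, given as a description.

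LOC_Os08g09010 had 12.7, 13.4 and 11.3 FPKM in DZ129AZ and 2.14, 2.38 and 2.64 in W517AZ, from 220 to 247 and from 40 to 51 reads. The groups were far apart, and its log2 fold change was −2.34 (SE 0.15, limma adjusted p = 1e-08). LOC_Os08g09060 had 5.55, 5.46 and 4.97 FPKM in DZ129AZ and 1.10, 0.708 and 0.480 in W517AZ. Its log2 fold change was −2.71 (SE 0.23, limma adjusted p = 1.9e-07), without overlap. LOC_Os08g08990 had 3.03, 3.48 and 3.75 FPKM in DZ129AZ and 0.557, 0.674 and 0.781 in W517AZ. It fell by 2.20 on the log2 scale (SE 0.22, limma adjusted p = 1.1e-06).

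LOC_Os08g08970 had 2.42, 2.52 and 2.85 FPKM in DZ129AZ and 0.839, 0.721 and 0.489 in W517AZ. The groups did not overlap, and the log2 fold change was −1.81 (SE 0.27, limma adjusted p = 5.6e-05).

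LOC_Os08g09000 and LOC_Os08g09020, which passed the filter through DZ129AZ, are given as a description. LOC_Os08g09000 had 2.08, 2.82 and 2.39 FPKM in DZ129AZ and 0.162, 0.161 and 0.0525 in W517AZ, where only 1 to 3 reads per library were left. Over the pooled reads, 137 against 7, DZ129AZ was 19.5 times as high (95% exact interval 9.19 to 49.3, counting error only). LOC_Os08g09020 had 0.569, 0.992 and 1.14 FPKM in DZ129AZ and 0, 0.160 and 0.261 in W517AZ. Over the pooled reads, 51 against 8, DZ129AZ was 6.34 times as high (95% exact interval 2.99 to 15.5, counting error only).

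LOC_Os08g08980 was nearest to the threshold. It had 10.3, 9.53 and 9.78 FPKM in DZ129AZ and 4.60, 5.25 and 3.64 in W517AZ, so that all DZ129AZ libraries were higher. The log2 fold change was −1.13 (SE 0.33, limma adjusted p = 0.0083). Without W517AZ replicate 3, or with a pseudocount of 1, it was −0.99 and no longer beyond a fold change of 2. The ratio of mean FPKM, 2.19, was close to the 2.24 of LOC_Os08g08960.

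The 2 members left out by the filter had few reads. LOC_Os08g09080 had 9, 9 and 8 reads in DZ129AZ and 5, 5 and 9 in DZ129NAZ, but 0, 0 and 2 in W517AZ and 2, 0 and 0 in W517NAZ. Every DZ129 library was thus above every W517 library. Over the pooled reads DZ129AZ was 12.9 times as high as W517AZ (95% exact interval 3.24 to 112), and DZ129NAZ 8.25 times as high as W517NAZ (95% exact interval 1.99 to 73.1), for counting error only. LOC_Os08g08920 had 1, 0 and 2 reads in DZ129AZ, 0, 2 and 0 in W517AZ and none in the 6 NAZ libraries. There 3 reads, the limit that a count of 0 allows, would be 0.218 to 0.266 FPKM.

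The same comparison was made outside the abscission zone. In W517NAZ vs. DZ129NAZ, 2 of the other 9 members were called by limma, 1 in each direction. Of all genes tested 27.7% were called, 10.0% higher and 17.7% lower, so the 2 of 7 tested copies were near the share of all genes. LOC_Os08g08960 had a log2 fold change of 0.08 (95% interval −0.08 to 0.23, adjusted p = 0.34 from limma). This interval leaves out a 2-fold difference between the NAZ of the cultivars.

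LOC_Os08g09010 was the copy lower in W517NAZ, with 5.49, 5.21 and 5.28 FPKM in DZ129NAZ and 1.13, 1.86 and 1.48 in W517NAZ. The log2 fold change was −1.80 (SE 0.15, limma adjusted p = 1.4e-07). It was therefore lower in W517 in both tissues. LOC_Os08g08970 went the other way, from 0.255, 0.324 and 0.157 FPKM in DZ129NAZ to 0.435, 0.709 and 0.956 in W517NAZ, with 3 to 6 and 7 to 16 reads. Its log2 fold change of 1.19 (SE 0.27, limma adjusted p = 0.0017) became 0.99 without DZ129NAZ replicate 3 and 0.96 without W517NAZ replicate 3. It also fell below a fold change of 2 with pseudocounts of 0.5 and 1, at 0.67 and 0.44.

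The 5 tested copies that were not called had log2 fold changes between −0.72 for LOC_Os08g08990 and 0.82 for LOC_Os08g09020. LOC_Os08g08990 had 1.35, 2.09 and 2.08 FPKM in DZ129NAZ and 0.756, 1.31 and 1.19 in W517NAZ, an adjusted p of 0.011 from limma at a fold change under 2. For LOC_Os08g09020 the adjusted p was 0.1, with a 95% interval of −0.11 to 1.75. With quantile normalization it was called, at 1.34.

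**Figure D3:**
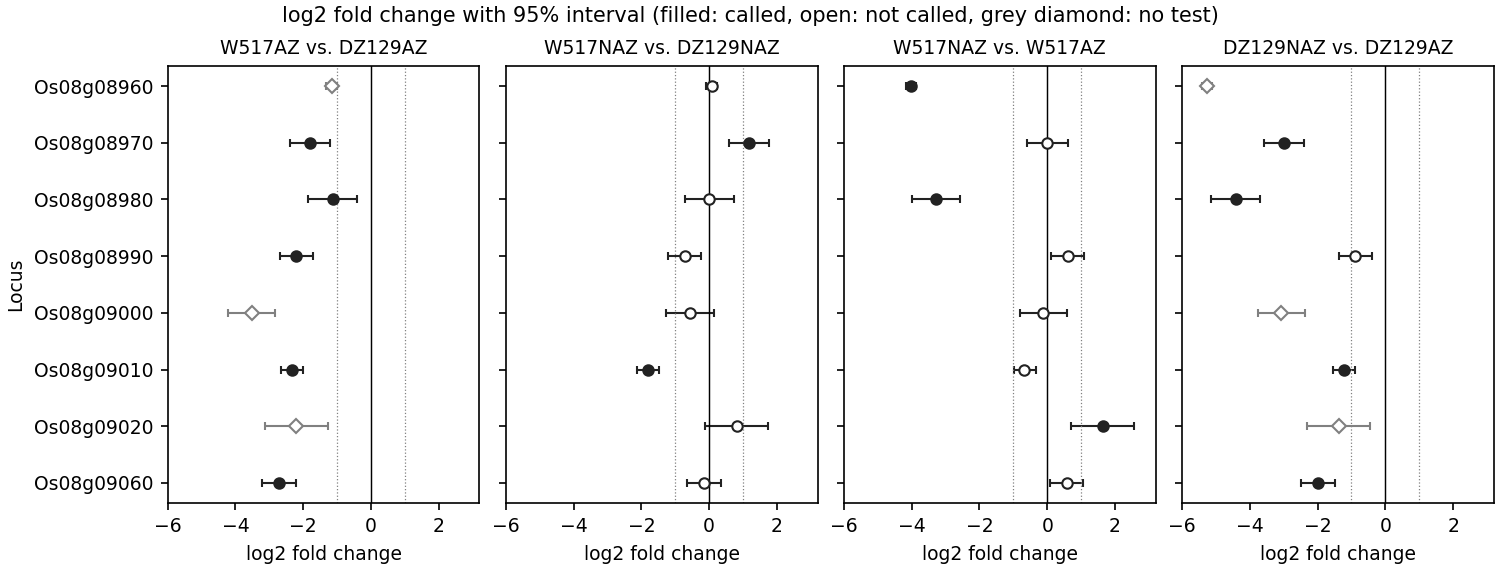
log2 fold changes of the 8 tested members in the 4 comparisons, from limma on log2(FPKM + 0.1), with 95% intervals. Filled circles were called, open circles were not, and grey diamonds mark LOC_Os08g08960, LOC_Os08g09000 and LOC_Os08g09020 against DZ129AZ, where no test is given. In W517AZ vs. DZ129AZ the circles lie from −1.13 to −2.71, and 16.4% of all genes tested were called lower there. In W517NAZ vs. W517AZ LOC_Os08g08960 and LOC_Os08g08980 stand apart at −4.01 and −3.28.

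The tissues of DZ129 were compared next. In DZ129NAZ vs. DZ129AZ, limma called 4 of the 5 members other than LOC_Os08g08960 that passed the filter without DZ129AZ, all lower in the NAZ. Of all genes tested 28.0% were called, 9.84% higher and 18.2% lower. With LOC_Os08g09000 and LOC_Os08g09020 taken in as a description, 6 of the other 9 members passed the same limits. The median log2 fold change of the 5 was −1.99, and that of all genes tested was −0.09. This comparison and W517AZ vs. DZ129AZ share the 3 DZ129AZ libraries. LOC_Os08g08960 was 38.1 times as high in DZ129AZ as in DZ129NAZ by mean FPKM, given as a description.

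LOC_Os08g08980 fell to 0.292, 0.776 and 0.200 FPKM in DZ129NAZ. The log2 fold change was −4.41 (SE 0.33, limma adjusted p = 5.2e-08), and 4 to 15 reads per NAZ library stood against 174 to 200 in the AZ. LOC_Os08g09000 had 0.148, 0.261 and 0.202 FPKM in DZ129NAZ. Its pooled reads were 12 times as high in the AZ (95% exact interval 6.63 to 23.7, counting error only), as a description. LOC_Os08g08970 changed by −2.99 (SE 0.27, limma adjusted p = 3.9e-07).

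LOC_Os08g09060, with 1.55, 1.01 and 1.28 FPKM in DZ129NAZ, changed by −1.99 (SE 0.23, limma adjusted p = 4.1e-06). LOC_Os08g09010 kept more of its level, with a ratio of mean FPKM of 2.34 between AZ and NAZ and a log2 fold change of −1.21 (SE 0.15, limma adjusted p = 7.8e-06). LOC_Os08g09020 had 0.147, 0.416 and 0.302 FPKM in DZ129NAZ, below the 0.569 to 1.14 of DZ129AZ, as a description. LOC_Os08g08990 was lower in the NAZ by 0.88 on the log2 scale (adjusted p = 0.0032 from limma), a fold change under 2.

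The tissues of W517 were compared in the same way. In W517NAZ vs. W517AZ, 2 of the other 9 members were called by limma, 1 lower and 1 higher in the NAZ. Of all genes tested 33.7% were called, 12.4% higher and 21.3% lower, so the 2 of 7 tested copies were near the share of all genes. LOC_Os08g08960, which was not picked on these libraries, was 16.2 times as high in W517AZ as in W517NAZ by mean FPKM. Its log2 fold change was −4.01 (SE 0.07, limma adjusted p = 3e-14), and 147558 to 157943 reads stood against 8366 to 9071.

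LOC_Os08g08980 was the other copy lower in W517NAZ, where it had 0.297, 0.282 and 0.571 FPKM. The log2 fold change was −3.28 (SE 0.33, limma adjusted p = 9e-07). LOC_Os08g09020 was higher in the NAZ, at 0.598, 0.455 and 0.632 FPKM, by a log2 fold change of 1.64 (SE 0.43, limma adjusted p = 0.0038). Over pooled reads, 29 against 8, W517NAZ was 3.96 times as high (95% exact interval 1.76 to 10.0, counting error only). With pseudocounts of 0.5 and 1 this copy was not called, at 0.75 and 0.46.

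LOC_Os08g09010 was lower in W517NAZ by 0.67 on the log2 scale (adjusted p = 0.0012 from limma), and LOC_Os08g08990 and LOC_Os08g09060 were higher by 0.60 and 0.57 (adjusted p = 0.028 and 0.041 from limma), each at a fold change under 2. With quantile normalization the last 2 were called, at 1.30 and 1.27. LOC_Os08g08970 had a log2 fold change of 0.00 (95% interval −0.59 to 0.60), and its pooled reads were 1.03 times as high in W517NAZ (95% exact interval 0.632 to 1.69, counting error only). LOC_Os08g09000 had 6 pooled reads in W517NAZ and 7 in W517AZ, a ratio of 0.936 (95% exact interval 0.260 to 3.25, counting error only). That interval includes a 2-fold difference in either direction.

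The difference between the cultivars in this tissue contrast was tested as an interaction, the W517NAZ minus W517AZ difference less that of DZ129. By limma, 3 of the 5 copies that passed the filter without DZ129AZ had an interaction at an adjusted p under 0.05, all positive. Of all genes tested 43.4% had one, 22.0% positive and 21.4% negative, so an interaction was common. With LOC_Os08g09000 and LOC_Os08g09020 taken in as a description, 5 of the other 9 members had one. The interaction was 3.0 (SE 0.39, limma adjusted p = 4.1e-05) for LOC_Os08g08970, 2.56 (SE 0.33, limma adjusted p = 3.6e-05) for LOC_Os08g09060 and 1.48 (SE 0.31, limma adjusted p = 0.002) for LOC_Os08g08990. For LOC_Os08g09020 and LOC_Os08g09000 the values were 3.02 (SE 0.61) and 2.96 (SE 0.45), as a description.

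For LOC_Os08g08980 and LOC_Os08g09010 the interaction was 1.13 and 0.54 (adjusted p = 0.07 and 0.055 from limma), with 95% intervals of 0.11 to 2.15 and 0.08 to 1.0. Both passed the threshold with a pseudocount of 0.5 or 1 and with quantile normalization, and with some libraries left out. Without DZ129NAZ replicate 2 that of LOC_Os08g08980 was 1.58 (adjusted p = 0.0028), and without W517NAZ replicate 1 or W517AZ replicate 3 that of LOC_Os08g09010 was 0.71 or 0.61 (adjusted p = 0.0053 and 0.045). That of LOC_Os08g08960 was 1.24 (SE 0.10), as a description.

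The reads of the copies were also set against those of LOC_Os08g08960. LOC_Os08g08980 had 5.49 reads per 10000 reads of LOC_Os08g08960 in DZ129AZ (95% exact interval 5.04 to 5.96) and 5.60 in W517AZ (4.93 to 6.33), with libraries pooled and counting error only. In the 3 DZ129AZ libraries the values were 5.50, 5.48 and 5.48, and in W517AZ 5.45, 6.60 and 4.74. In the NAZ they were 8.85 (5.73 to 13.1) in DZ129 and 7.75 (4.73 to 12) in W517, from 4 to 15 reads per library. The highest library was DZ129NAZ replicate 2 at 18.1, whose interval of 10.1 to 29.9 lay above that of every AZ library. Without it the 10 remaining reads of DZ129NAZ gave 5.01 (2.4 to 9.21). The pooled ratio of the 4 groups thus stayed within a factor of 1.61, while LOC_Os08g08960 itself ranged over 38.1 times in mean FPKM. Whether reads of LOC_Os08g08960 were counted on LOC_Os08g08980 was not tested.

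These ratios move with the level of LOC_Os08g08960, on which the cluster was picked, so that a gene of steady level spans a wide range. LOC_Os08g09100, a neighbour outside the cluster that changed by less than 2-fold in each comparison, spanned a factor of 63.1 between its highest and lowest group. It was not fully steady, with mean FPKM from 51.9 in DZ129AZ to 90.3 in W517NAZ, and this change is part of the factor. LOC_Os08g09010 had 6.93 reads per 10000 reads of LOC_Os08g08960 in the AZ of DZ129 and 113 in its NAZ, and 2.99 and 30.2 in those of W517. For LOC_Os08g08970, LOC_Os08g08990, LOC_Os08g09000, LOC_Os08g09020 and LOC_Os08g09060 the highest group was 16.7 to 64.0 times the lowest, and for LOC_Os08g09080 it was 153 times the lowest. In each of these the lowest ratio was that of W517AZ, where LOC_Os08g09000 had 0.154 and LOC_Os08g09020 had 0.176 reads per 10000.

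**Figure D4:**
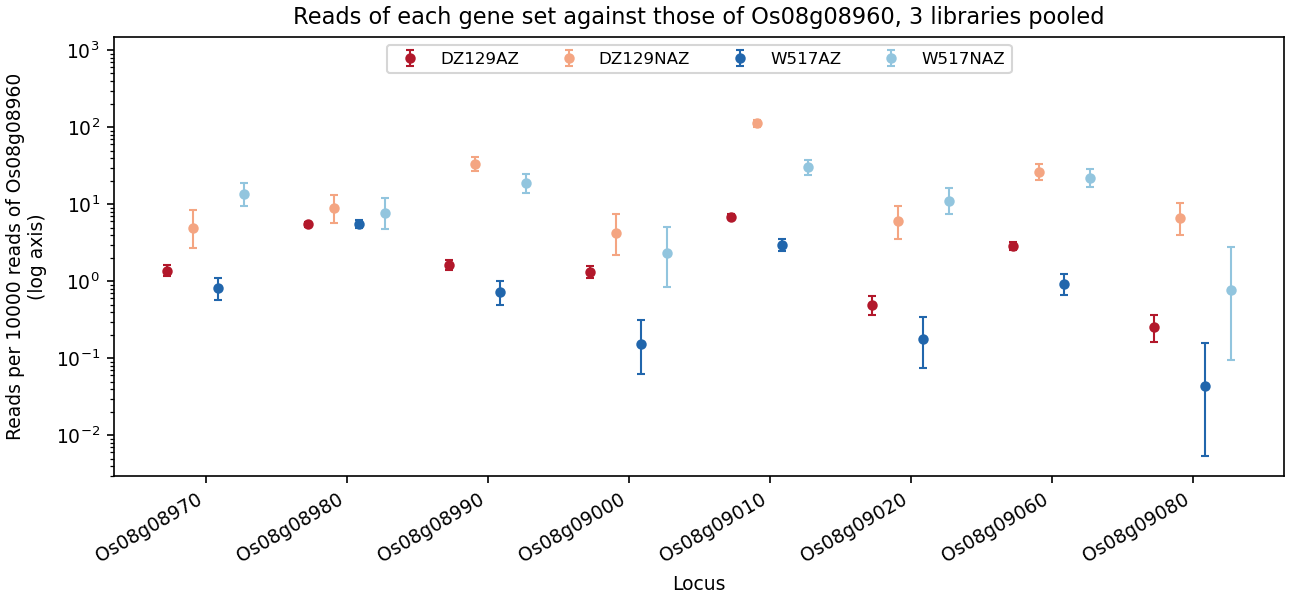
Reads of 8 minor copies per 10000 reads of LOC_Os08g08960, with the 3 libraries of a group pooled, on a log axis. Points are groups and whiskers are 95% exact intervals for counting error only, and LOC_Os08g08920 is left out because it had 5 reads in all. The 4 points of LOC_Os08g08980 lie between 5.49 and 8.85, while those of LOC_Os08g09010 lie between 2.99 and 113.

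The genes whose pattern was most like that of LOC_Os08g08960 were found by Pearson's r of log2(FPKM + 0.1) over the 12 libraries. These libraries form 4 groups, so r mostly reflects the group means. LOC_Os04g57220, LOC_Os04g33740 and LOC_Os09g34110 came first, each with an r of 0.997. Their mean FPKM in DZ129AZ, W517AZ, DZ129NAZ and W517NAZ was 909.7, 766, 426 and 416 for LOC_Os04g57220 and 6.47, 3.54, 0.258 and 0.306 for LOC_Os04g33740. LOC_Os09g34110 had 9.50, 7.20, 2.78 and 2.66. Among the members LOC_Os08g08980 was nearest, with an r of 0.976 and place 412 among the genes tested. LOC_Os08g08970 followed at place 5203, and LOC_Os08g09020 was last at place 13542 with an r of 0.071.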

How the data were processed

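Libraries were made with a stranded mRNA kit. Reads were trimmed with Trimmomatic and mapped with HISAT2 to MSU-RGAP 7.0. The authors deposited FPKM, 1 column per library, which the study says were made with Cufflinks. Reads were also counted with HTSeq. Versions and the setting for strand are not given in the sources used here. Reads per gene were recovered as whole numbers (tolerance 0.002) for 100.0% of 35851 genes, with library totals scaled on read numbers printed by the study for 1160 genes, of which 99.7% were matched exactly. Lengths of 150 to 20000 bp were allowed. Library totals ranged from 17119083 to 20892377, with a median of 19382442.5.

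Tests used limma 3.58.1 (limma-trend) in R 4.3.3, and 11900 genes under the filter were not tested. Intervals on reads are 95% exact (Clopper-Pearson) and cover counting error only, and reads carry no molecular identifiers. Replicate libraries differed by more than counting error, with a chi-square per degree of freedom of 1.78 to 4.01 across tested genes. The intervals leave out this spread between libraries and are too narrow to that extent. Other steps used Python 3.11.15 with scipy 1.17.1. The fit was tested on simulated data. Alternatives left out each library in turn, used a replicate block or separate models, changed the pseudocount to 0.5 or 1, dropped the filter or raised it to 1 FPKM, and applied quantile normalization, median-ratio scaling or limma voom on recovered reads. Library totals without LOC_Os08g08960, counts over members that passed the filter without DZ129AZ, and the ratio of LOC_Os08g08980 to LOC_Os08g08960 without each library were alternatives chosen after seeing the data.

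All 10 members are named, with the 3 genes most correlated with LOC_Os08g08960 and called loci numbered between LOC_Os08g08900 and LOC_Os08g09100. The 15 grain markers are the prolamin and glutelin genes among 1160 of the genes that the study listed as differing in W517AZ. The rest of that list was not read. The members and lists were chosen with earlier results of these data known. The RefSeq table used here does not pair MSU loci with names, so germin-like genes elsewhere were not analysed here, and no sequence or coordinate is given.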

Additional observations from a re-analysis of the deposited data

Results flagged for a closer look

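By the interaction in limma, 3 of the 5 copies that passed the filter without DZ129AZ differed between the cultivars in how NAZ compared with AZ. Among all genes tested 43.4% had an interaction at the same threshold, so this was common. On the log2 scale the W517 difference exceeded that of DZ129 by 3.0 for LOC_Os08g08970, 2.56 for LOC_Os08g09060 and 1.48 for LOC_Os08g08990. Their adjusted p ranged from 3.6e-05 to 0.002 and stayed at or below 0.0067 in the 21 alternatives. LOC_Os08g09020 and LOC_Os08g09000 had values of 3.02 and 2.96, but entered the test only through their level in DZ129AZ, which is part of the interaction, so these are a description.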

How the results depend on the processing

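No called member changed direction in an alternative. In W517NAZ vs. DZ129NAZ, 2 of the other 9 members were called, and 1 with a pseudocount of 0.5 or 1 and 1 to 2 when a library was left out. The share of all genes called was 27.7%, and 21.4% and 16.9% with these pseudocounts and 27.4% to 27.9% without a library. In W517NAZ vs. W517AZ, 2 were called, and 1 with a pseudocount of 0.5 or 1 or a minimum of 1 FPKM, and 4 with quantile normalization. The share of all genes called was 33.7%, and in these settings 28.1%, 23.3%, 32.7% and 31.8%, in the order named. Over all genes, a pseudocount of 1 gave 4214 in place of 6480 calls in W517AZ vs. DZ129AZ, 4056 in place of 6635 in W517NAZ vs. DZ129NAZ and 4385 in place of 6712 in DZ129NAZ vs. DZ129AZ. Quantile normalization moved the share of higher calls from 39.3% to 49.4%, 36.2% to 50.6%, 36.9% to 49.6% and 35.1% to 47.1% in the 4 comparisons, in the order W517AZ vs. DZ129AZ, W517NAZ vs. DZ129NAZ, W517NAZ vs. W517AZ and DZ129NAZ vs. DZ129AZ. It moved the all-gene median on the log2 scale from −0.07 to 0.08 in the first, from −0.07 to 0.11 in the second, from −0.13 to 0.00 in the third and from −0.09 to 0.02 in the fourth, and the medians of the 7 tested copies other than LOC_Os08g08960 then were −1.97, 0.38, 0.75 and −1.66. LOC_Os08g08960 then changed by −4.45 in place of −5.26 in DZ129NAZ vs. DZ129AZ. The cause was not tested. Without the filter LOC_Os08g09080 was called as well in both comparisons of the cultivars. That made 8 of the other 9 members in the AZ, against 22.5% of all genes, and 3 in the NAZ, against 21.6%. Counts where DZ129AZ enters take in LOC_Os08g09000 and LOC_Os08g09020 as a description. Quantile normalization also gave 3 in W517NAZ vs. DZ129NAZ, against 27.0% of all genes. With limma voom on recovered reads the 4 counts of members were 7, 2, 2 and 6, as in the main test. The shares of all genes with voom were 28.0%, 29.3%, 34.8% and 29.2%. Separate models give no interaction. Same-numbered libraries did not deviate together (r of −0.04 to 0.02 over 18 pairs), which cannot show whether they came from the same plants. With the replicate block the counts of members were 7, 2, 2 and 6, with 5 interactions. The shares of all genes were then 27.0%, 27.7%, 33.7%, 28.0% and 42.4%. Depth limits LOC_Os08g08920 and LOC_Os08g09080, with 0 to 2 and 0 to 9 reads per library.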

Other observations

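The file holds 4 further loci numbered between LOC_Os08g08900 and LOC_Os08g09100 that are not among the members. LOC_Os08g09040, which lies between members by number and whose product is not given in the sources used here, had 4.10, 6.36 and 5.71 FPKM in DZ129AZ, 0.699, 0.675 and 1.04 in DZ129NAZ, 0.768, 0.692 and 0.814 in W517AZ and 1.47, 1.55 and 0.970 in W517NAZ. It was lower in W517AZ than in DZ129AZ, with a log2 fold change of −2.66 (SE 0.22, limma adjusted p = 1.7e-07), and lower in DZ129NAZ than in DZ129AZ, with −2.60 (SE 0.22, limma adjusted p = 1.9e-07). Its interaction of 3.31 (SE 0.31, limma adjusted p = 2.8e-06) was above that of each member tested. LOC_Os08g09100, just past the last member, had 51.9 ± 1.24 and 54.5 ± 1.49 FPKM in the AZ and NAZ of DZ129 and 65.4 ± 2.39 and 90.3 ± 2.19 in those of W517 (SD, n = 3). It changed by less than 2-fold in all 4 comparisons. LOC_Os08g08940 and LOC_Os08g09090 had at most 1 read in any library.

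The annotation used by the study describes LOC_Os05g19670 and LOC_Os08g35750, outside the cluster, as cupin domain containing. The study chose them on these samples as differing in W517AZ, and they were looked up after the values of the members were seen. Only 1160 of the genes chosen in that way were searched. LOC_Os05g19670 had a log2 fold change of 3.97 (SE 0.48) in W517AZ vs. DZ129AZ. This is given as a description, because the gene was chosen on that difference. LOC_Os08g35750 had 7 to 14 reads per library in W517AZ, 0 to 1 in DZ129AZ and none in either NAZ group, and was under the filter.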
